A study of Caenorhabditis elegans with 2 samples.

Results

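The piRNA cluster domains are the parts of chromosome IV of Caenorhabditis elegans that hold most of the genome's piRNA genes. They were taken here as 2 stretches on assembly ce11, a western one from 4.5 to 7.0 Mb and an eastern one from 13.5 to 17.2 Mb. Members were the candidate binding regions of BED-2 whose summit lay in either stretch, taken from the deposited ranked list after overlapping peaks had been merged. There were 2617 members, 1220 western and 1397 eastern, of 64322 merged candidates in the whole series. The other 7124 candidates on chromosome IV served as the comparison.

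BED-2 binding was measured by ChIP-seq with an anti-GFP antibody in whole young adult worms of strain RW12335, which carries TY1::EGFP::3xFLAG at bed-2 on chromosome III, an insertion made with CRISPR. All worms came from 1 group, sampled at 63 h after synchronisation as starved L1 larvae from bleaching, and there were 2 biological replicates. Neither an untagged strain nor a second condition was used here, and chromatin of all tissues was pooled, so a region bound in few cells and one weakly bound in many cannot be told apart. No read counts come with the peak lists, and the depth of either replicate is unknown.

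piRNAs, called 21U-RNAs in worms, are short RNAs that guide the Piwi protein PRG-1 to foreign or unwanted transcripts in the germline. In nematodes most of them have a small transcription unit of their own, with an upstream element known as the Ruby motif, and a complex that includes PRDE-1 and SNPC-4 gathers on the clusters. BED fingers are DNA-binding zinc fingers found in many chromatin and transposon-derived proteins. Besides piRNA genes, the domains hold ordinary protein-coding genes, tRNA genes, pseudogenes and repeats.

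The domains contained 14204 annotated piRNA starts (2291 per Mb), against 510 (45.2 per Mb) in the rest of the chromosome, so the label fits the annotation. Their protein-coding genes numbered 941 (152 per Mb), against 2340 (207 per Mb) in the rest of chromosome IV. The eastern domain was the denser in piRNA genes, with 11388 starts, and the western one had 2816.

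The upstream element of these piRNA genes and the DNA under BED-2 peaks are shown first, because the results turn on whether they meet. Sequences are from the RefSeq genome of ce11, written 5′ to 3′ on the strand of the gene. Each piRNA window holds the 60 bases upstream of the annotated start and the 21 bases from it, and capitals mark the whole Ruby motif CTGTTTCA. The first 3 genes lie closest to passing BED-2 summits and lack the whole motif in this window. The other 2 carry it, beginning 46 bp upstream of the start.
21ur-5229 (IV:5967029-5967109, + strand): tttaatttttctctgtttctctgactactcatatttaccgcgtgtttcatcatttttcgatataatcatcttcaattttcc
21ur-11151 (IV:15530867-15530947, − strand): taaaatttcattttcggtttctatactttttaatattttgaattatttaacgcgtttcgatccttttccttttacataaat
21ur-3160 (IV:14224908-14224988, + strand): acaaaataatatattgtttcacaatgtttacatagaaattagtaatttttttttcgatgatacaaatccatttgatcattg
21ur-2298 (IV:14224784-14224864, − strand): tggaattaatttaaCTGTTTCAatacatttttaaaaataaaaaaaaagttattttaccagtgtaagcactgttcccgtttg
21ur-7096 (IV:15531099-15531179, − strand): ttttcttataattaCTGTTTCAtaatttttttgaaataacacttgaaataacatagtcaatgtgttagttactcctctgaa

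The second set comes from passing members themselves. Y17G9B.5 is shown because its region had the highest signal among the passing members whose summit window has no other copy in the genome. It covers the whole 111-base peak on the + strand, and capitals mark the 21 bases centred on the summit.
Y17G9B.5 (IV:4750011-4750121, + strand): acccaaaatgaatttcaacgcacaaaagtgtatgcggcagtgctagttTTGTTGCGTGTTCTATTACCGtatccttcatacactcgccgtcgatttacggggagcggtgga

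The third set holds a stretch of 22 bases, in capitals, that several passing members near protein-coding genes share. It was taken from the region in the Y65A5A.2 intron after the regions had been seen, and the others are the best ungapped matches to it in their regions. No factor is assigned to it.
Y65A5A.2 (IV:16415239-16415300, + strand): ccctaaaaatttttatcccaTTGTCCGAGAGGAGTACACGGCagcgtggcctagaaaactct
Y73B6BL.29 (IV:6321896-6321957, − strand): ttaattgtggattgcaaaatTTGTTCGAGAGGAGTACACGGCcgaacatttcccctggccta
C01B10.9 (IV:6632025-6632086, − strand): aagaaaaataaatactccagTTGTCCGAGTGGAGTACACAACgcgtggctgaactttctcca
C49A9.10 (IV:6206523-6206584, + strand): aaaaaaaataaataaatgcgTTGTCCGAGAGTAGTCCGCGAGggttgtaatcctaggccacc
sqd-1 (IV:6323811-6323872, + strand): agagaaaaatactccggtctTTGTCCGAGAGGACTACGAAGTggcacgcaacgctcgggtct

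A region was said to pass when it overlapped the authors' conservative list, which keeps peaks that ranked alike in both replicates at an irreproducible discovery rate (IDR) of 0.01. In the piRNA domains 26 of 2617 candidates passed (0.994%, 95% Clopper-Pearson interval 0.650 to 1.45), against 60 of 7124 in the rest of chromosome IV (0.842%, 0.643 to 1.08). The share over the whole series was 0.88%, inside the domains' interval. Among candidates with no piRNA start within 1000 bp it was 1.56% in the domains (0.958 to 2.40), against 0.844% in the rest (0.640 to 1.09). This is a ratio of 1.85 where all candidates gave 1.18, but the 2 intervals overlap and this grouping was not planned. Intervals here and below cover counting error over regions only, and regions are not replicates.

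By replicate, the domains held 13 regions in the thresholded list of replicate 1 and 17 in that of replicate 2, against 28 and 26 in the rest of the chromosome. The ratio of the shares, domains over rest, was 1.22 from replicate 1 alone and 1.72 from replicate 2 alone, against 1.18 from both. The replicates differed from each other by more than the ratio from both differed from 1. Per length the order was the other way, with 4.19 passing regions per Mb in the domains (exact Poisson interval 2.74 to 6.14) and 5.31 in the rest (4.05 to 6.84), a ratio of 0.789. With replicate 2 alone this ratio was 1.19, on the other side of 1. Candidates themselves were sparser in the domains, at 422 per Mb, against 631 per Mb in the rest.

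The western domain held 14 passing regions of 1220 (1.15%, 0.629 to 1.92) and the eastern one 12 of 1397 (0.859%, 0.445 to 1.50). These intervals overlap, so a difference between the domains was not detectable from these counts. Of the 26, 24 were also in the authors' optimal list, and the exceptions were the regions at Y73B6BL.t1 and 21ur-6740.

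Peak signal, the authors' own value per peak, had a median of 23.5 over all members and 24.4 over the rest of the chromosome. In replicate 1 alone, over that replicate's own candidates, the medians were 14.48 in the domains and 14.49 in the rest. In replicate 2 alone they were 16.92 and 16.94. The small gap in the list made from both replicates was not seen in either replicate by itself. Among passing regions the signal ranged from 63.7 to 443.6 with a median of 95.4 in the domains, against 32.2 to 328.3 with a median of 90.7 in the rest. Passing rests on the ranks of peaks, so a higher signal in passing than in other candidates is no result. The western passing regions had a median of 110 and the eastern ones 85.3.

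**Figure D1:**
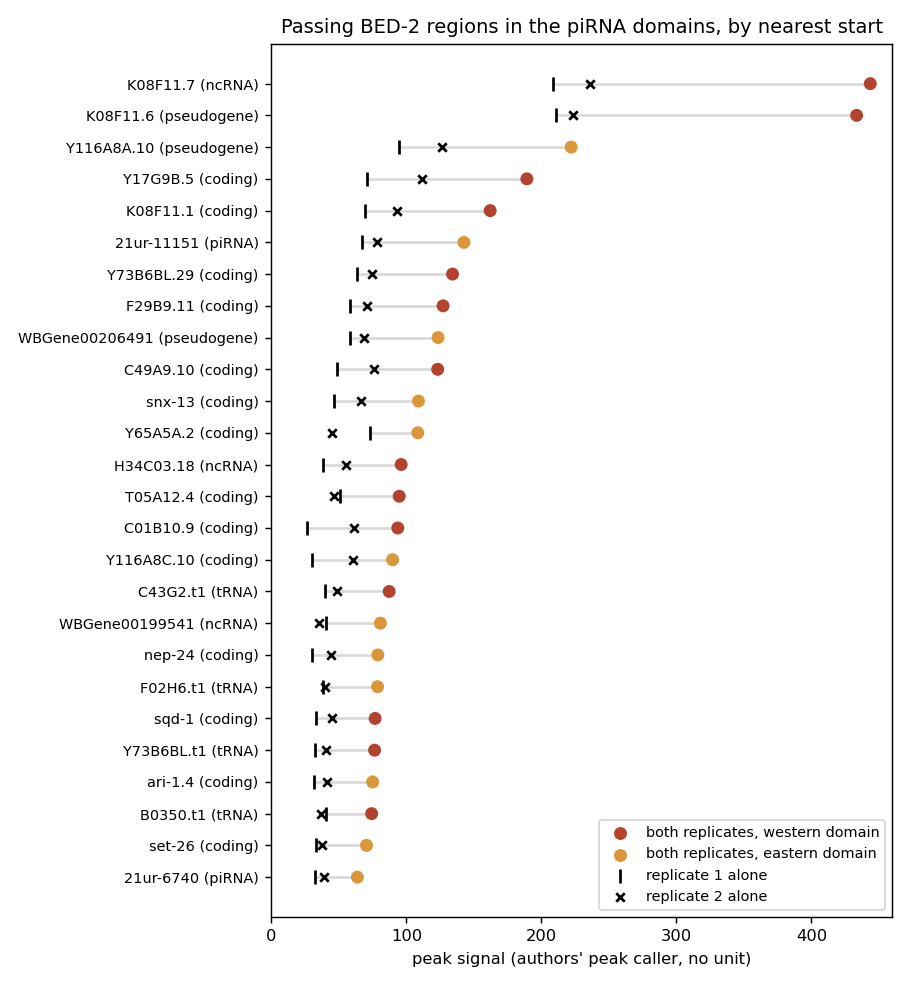
Peak signal (x axis, the authors' value, no unit) of the 26 passing regions in the piRNA domains, 1 row each, named by the nearest start and its gene type. Filled circles give the value in the list made from both replicates, and ticks and crosses the values in replicate 1 and replicate 2 alone. The 2 highest, near K08F11.7 and K08F11.6, stand at 443.6 and 433.5, and 22 of 26 have a higher value in replicate 2.

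The piRNA genes come first. A piRNA start lay within 1000 bp of the summit in 6 of the 26 passing regions (23.1%, 8.97 to 43.6), against 1332 of the 2591 domain candidates that did not pass (51.4%). In the rest of chromosome IV, where piRNA genes are few, the same counts were 3 of 60 (5.0%) and 5.20%. By replicate, the domain share was 2 of 13 (15.4%) in replicate 1 alone and 5 of 17 (29.4%) in replicate 2 alone. The nearest start of any gene was a piRNA in 2 of 26 passing regions, against 1165 of 2591 that did not pass. The intervals of 23.1% and 51.4% (49.5 to 53.4) do not overlap, and the 2 shares in the rest of the chromosome are alike. By domain, the western share was 3 of 14 (4.66 to 50.8) against 40.7% (37.9 to 43.5), and these intervals overlap. The eastern share was 3 of 12 (5.49 to 57.2) against 60.7% (58.1 to 63.3), and these narrowly do not. With a longer cut than 1000 bp the domain shares were 42.3% passing and 61.5% not passing. With a shorter cut they were 15.4% and 40.9%.

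The median distance to the nearest piRNA start was 2366 bp in passing members (quartiles 1072 and 8083), against 884 bp in members that did not pass. With replicate 1 alone the first value was 5339 bp and with replicate 2 alone 2466 bp. In the rest of the chromosome the distances were 31730 bp and 20085 bp. In both parts of the chromosome the passing regions lay farther from piRNA starts than the other candidates.

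**Figure D2:**
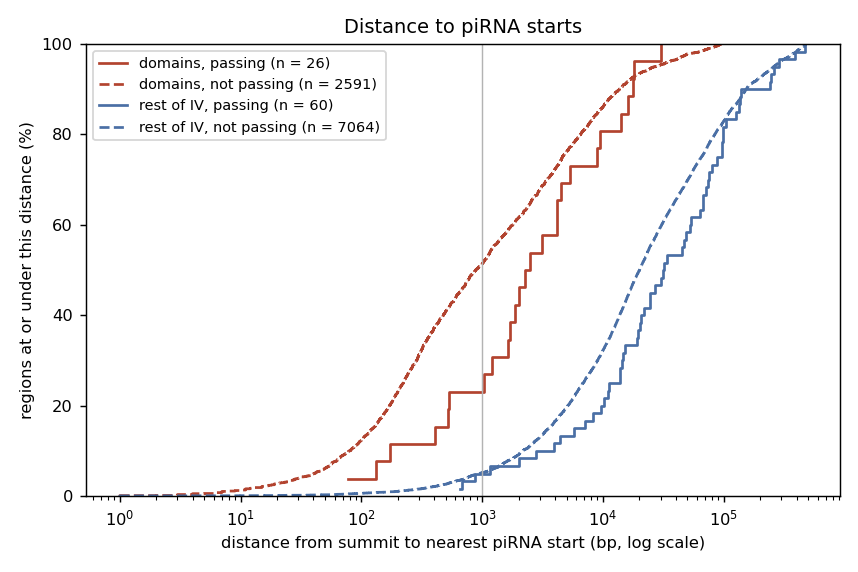
Cumulative share of regions (y axis, %) by distance from summit to the nearest piRNA start (x axis, bp, log scale), for domains and rest of chromosome IV, passing (solid) and not passing (dashed), with a grey line at 1000 bp. At that line the domain curves stand at 23.1% for passing and 51.4% for not passing regions.

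The share that passed was lower near piRNA starts. Of the members with a piRNA start near, 6 of 1338 passed (0.448%, 0.165 to 0.973), against 20 of 1279 with none near (1.56%, 0.958 to 2.40), and the intervals overlap narrowly. By number of starts, 1 of 536 passed with 1 to 3 near, 5 of 632 with 4 to 9 near, and 0 of 170 with 10 or more near (upper bound 2.15%). Base composition moved along with this grouping. The windows of 101 bp around the summits had a median GC content of 32.7% in the last group and 41.6% where no piRNA start was near.

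When only windows of at least 45% GC were kept, 6 of 318 members with a piRNA start near passed (1.89%, 0.695 to 4.06), against 15 of 483 with none near (3.11%, 1.75 to 5.07). These intervals overlap. The rest of chromosome IV gave 3 of 64 with a piRNA start near (4.69%, 0.977 to 13.1), against 42 of 2100 with none near (2.0%, 1.45 to 2.69), and without the GC limit 3 of 370 (0.811%) against 57 of 6754 (0.844%). The part that GC content plays was not tested further. Passing regions were richer in GC than the other candidates, at a median of 51.0% against 39.6% in the domains, and at 50.5% against 40.6% in the rest.

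Summits at piRNA starts had a lower median signal than members as a whole. Of 321 members with a summit within 100 bp of one, 1 passed (0.312%, 0.00789 to 1.72). The share over all members, 0.994%, is inside that interval. The median signal of the 321 was 19.97, against 23.5 over all members. Their median GC content was also lower, at 31.7% against 39.6%, and its part was not tested. The passing one lay at B0350.t1, a tRNA gene, with a signal of 74.3 (40.2 in replicate 1 and 36.6 in replicate 2). The next highest were Y105C5A.15, at 63.1 (37.0 and 23.0), and 21ur-7560 in an exon of sorb-1, at 49.2 (25.2 and 23.0).

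Among the 170 members with 10 or more piRNA starts near, the highest signal was 65.3 (32.1 and 34.7), at the non-coding RNA gene Y7A9D.66. It was followed by 21ur-8922, in an intron of the forkhead gene fkh-7, at 61.2 (27.8 and 33.7). The third was 21ur-6973, at 57.6 (23.2 and 37.4). The first lies just above the lowest signal of a passing member, 63.7, and the other two lie below it.

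The Ruby motif was counted next. On the piRNA strand the whole motif was found between 250 bp before and 50 bp after the start of 5920 of the 14204 domain piRNA genes (41.7%), with a median position of 46 bp before the start, and at 170 of 510 (33.3%) in the rest of chromosome IV. In the BED-2 regions, searched on both strands, the whole motif was in 0 of 26 passing members (upper bound 13.2%), against 344 of 2591 not passing (13.3%). In the rest of the chromosome it was in 1 of 60 passing regions and in 155 of 7064 not passing (2.19%). Less sequence was searched in some passing members, as 5 of 26 were narrower than the full peak width, against 0 of 2591 not passing. Within 100 bp either side of the summit, the motif was in 0 of 26 passing members and in 7.18% of the others. The 344 members that hold it had a median signal of 20.3, against 24.0 in members without it. Their median GC content was 33.7%, and of all members under 45% GC only 0.275% passed. The part of GC content here was not tested. The core TTTCA, a short word that is part of the whole motif, was in 21 of 26 passing members (80.8%) and in 89.0% of those not passing. A match says only that the letters are present.

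Counted by gene, 30 of the 4694 domain piRNA genes with any candidate within 1000 bp had a passing one there and were called reached (0.639%, 0.432 to 0.911). The background over all genes was 926 of 30847, or 3.0%. The 30 genes came from only 6 regions, so they are not 30 separate events. By region they numbered 8 at F02H6.t1, 6 at B0350.t1, 6 at 21ur-11151, 5 at Y73B6BL.t1, 4 at 21ur-6740 and 1 at C49A9.10. In 2 genes the start lay within 150 bp of the summit, 21ur-5229 at 78 bp and 21ur-11151 at 133 bp, and both lack the whole motif in the windows printed above. Of these 6 regions, 3 lie at tRNA genes, 1 in an exon of the collagen gene col-133, 1 upstream of the coding gene C49A9.10 and 1 in a repeated sequence described below.

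The rest of chromosome IV gave a like share of piRNA genes, 3 of 322 (0.932%, 0.193 to 2.70). Within the domains, 12 of 1143 western genes (1.05%) and 18 of 3551 eastern genes (0.507%) were reached. All of these shares are below the 3.0% of all genes.

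**Figure D3:**
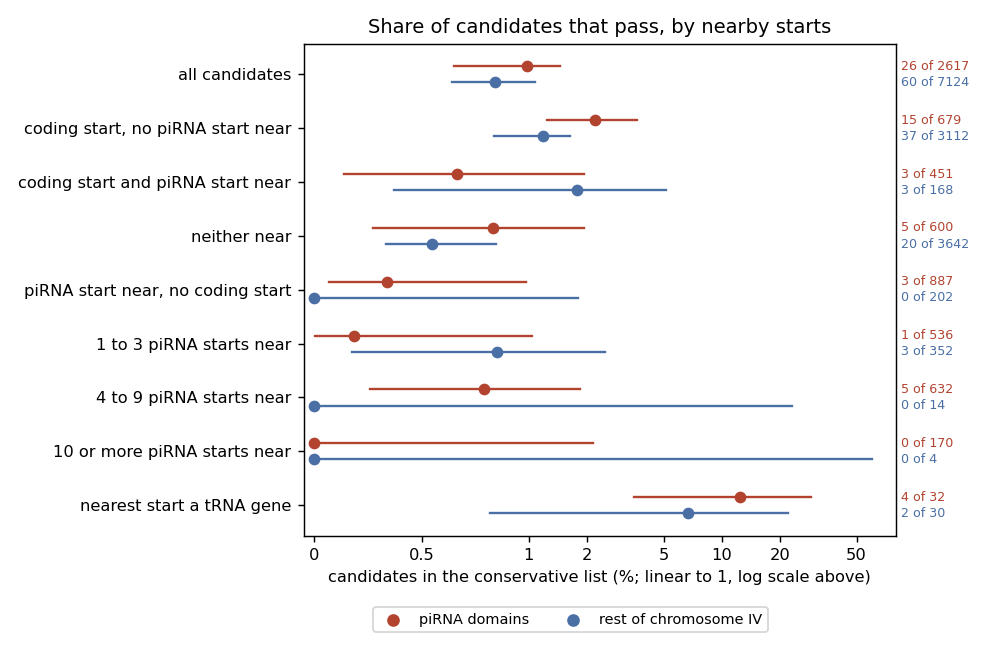
Share of candidates that pass (x axis, %, linear to 1 and log above) by the starts within 1000 bp of the summit, for the piRNA domains (red) above the rest of chromosome IV (blue). Points are shares and bars exact 95% binomial intervals, with the counts at the right. In the domains the share is 15 of 679 near a coding start alone and 3 of 887 near a piRNA start alone.

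Protein-coding genes were next. A coding start lay within 1000 bp of 18 of 26 passing members (69.2%, 48.2 to 85.7), against 42.9% of members that did not pass. In the rest of the chromosome it was 40 of 60 (66.7%). The share passing was 2.21% for domain candidates with a coding start and no piRNA start near (15 of 679, 1.24 to 3.62), against 1.19% for such candidates in the rest (37 of 3112, 0.838 to 1.64). With neither kind of start near, it was 0.833% in the domains (5 of 600) and 0.549% in the rest (20 of 3642). Each pair of intervals overlaps.

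The coding genes reached numbered 22 of 607 in the domains (3.62%, 2.29 to 5.44) and 53 of 1887 in the rest (2.81%, 2.11 to 3.66). Of 26 passing members, 14 had a coding start as the nearest start, 10 of these with the summit upstream of it and 8 within 400 bp upstream. Of all 26, 6 lay between the starts of a divergent gene pair, and these overlap the groups just counted. By place, 16 lay between genes and 10 within one.

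The highest of the coding-gene regions with a single copy in the genome was that at Y17G9B.5 (IV:4750011-4750121), with a signal of 189.3 (70.6 in replicate 1 and 111.5 in replicate 2). Its summit lay 171 bp upstream of Y17G9B.5, on the other side of which the divergent rpl-20 encodes a ribosomal protein of the large subunit. Replicate 2 was 1.58 times replicate 1, the third largest ratio among the 26.

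The region at F29B9.11 (IV:4660380-4660909) had a signal of 127.2 (58.0 and 71.1), 339 bp upstream. Its divergent neighbour is jmjd-1.2, a histone demethylase. The region between snx-13, a sorting nexin, and snr-1, an Sm protein of the splicing machinery (IV:17087440-17087759), had 109.0 (46.4 and 66.4). The region between T05A12.3 and T05A12.4 (IV:6887747-6888066) had 94.7 (51.0 and 46.1). These 3 have the summit in the shared upstream space of 2 genes.

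The 6 passing members with the 22-base stretch all had a coding gene as the nearest start. At Y73B6BL.29 (IV:6321741-6322060), 28 bp upstream, 21 of 22 bases matched and the signal was 134.2 (63.3 and 74.4). At C49A9.10 (IV:6206424-6206743), 240 bp upstream, 17 matched and the signal was 123.2 (48.9 and 76.2). In the Y65A5A.2 intron (IV:16415161-16415480), the source of the stretch, the signal was 108.5 (72.7 and 44.8). This was the member with the lowest ratio of replicate 2 to replicate 1, 0.616.

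Between cest-5.1, a carboxylesterase gene, and C01B10.9 (IV:6631850-6632169), 19 bases matched and the signal was 93.6 (26.2 and 61.2). Upstream of sqd-1, which encodes an hnRNP-type RNA-binding protein (IV:6323684-6324003), 17 matched and the signal was 76.8 (33.0 and 44.6). In an intron of ari-1.4, a gene of the ariadne family of ubiquitin ligases (IV:15526558-15526877), 21 matched and the signal was 75.02 (31.6 and 41.3). The regions at Y73B6BL.29 and sqd-1 are neighbours on the chromosome, and C01B10.9 had the highest ratio of replicate 2 to replicate 1 of all 26, 2.33.

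A match of at least 16 of 22 bases was present in 6 of 26 passing members (23.1%), against 25 of 2591 that did not pass (0.965%, 0.625 to 1.42). The rest of chromosome IV gave 6 of 60 and 81 of 7064 (1.15%), and the other chromosomes gave 44 of 480 and 509 of 54101 (0.941%). The stretch was found in the domain members, so their 6 are a description of how it was picked. The counts on the other chromosomes were not used to pick it, and the interval of the passing share there, 6.74 to 12.1%, lies above that of the not passing share, 0.861 to 1.03%. Passing regions there were also richer in GC, at a median of 50.5% against 40.6%, and the part of GC content was not tested. The shares depended on the number of matches asked for. With 14 matches it was 6 of 26 passing members against 6.18% of those that did not pass, and 15% against 6.65% on the other chromosomes. With 18 matches it was 4 of 26 against 0.579%, and 7.08% against 0.536%. Of the 31 domain candidates with the stretch, 11 had a piRNA start near, and 1 of these 11 passed.

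Other coding-gene members had the summit in an exon or an intron. They were an exon of Y116A8C.10 at 89.8 (30.3 and 60.4), an intron of nep-24, a neprilysin-family peptidase gene, at 78.9 (30.5 and 44.3), and an exon of set-26, a SET-domain gene, at 70.5 (33.1 and 37.3). The exon of col-133 near 21ur-6740 (IV:14098527-14099056) had the lowest signal of the 26, 63.7 (32.5 and 38.7). Windows in nep-24 and col-133 have 98 and 36 other partial copies in the genome.

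Among the gene types counted in the domains, tRNA genes had the highest share. Of 32 domain candidates whose nearest start was a tRNA gene, 4 passed (12.5%, 3.51 to 29.0), against 2 of 30 in the rest of chromosome IV (6.67%, 0.818 to 22.1). By domain, 3 of 8 such candidates passed in the west (37.5%, 8.52 to 75.5) and 1 of 24 in the east (4.17%, 0.105 to 21.1). Counted by gene, 4 of 31 tRNA genes with a candidate were reached in the domains (12.9%), against 69 of 519 on the other chromosomes (13.3%), a like share. Genes are not separate events here, as a region can reach several. On the other chromosomes 39 of 480 passing regions had a tRNA gene as the nearest start (8.1%), against 661 of 54101 not passing (1.22%). In the domains it was 4 of 26 (15.4%) and 28 of 2591 (1.08%). The 4 regions had signals of 87.3 at C43G2.t1 (39.9 and 48.6), 78.7 at F02H6.t1 (38.1 and 39.8), 76.5 at Y73B6BL.t1 in an intron of the tyrosinase gene tyr-6 (32.4 and 40.3), and 74.3 at B0350.t1. Of the 4, 3 have piRNA starts within 1000 bp. At 3 of them a non-coding RNA gene is annotated on the opposite strand, and a peak cannot tell it from the tRNA gene.

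None of 15 domain snoRNA genes with a candidate was reached (upper bound 21.8%), against 13 of 35 in the rest (37.1%, 21.5 to 55.1). On the other chromosomes 40 such genes were reached (15.6%, 11.4 to 20.7), a share inside the interval of the 15 domain genes. A region can reach several genes, so these genes need not be separate events. Counted by region, a snoRNA gene was the nearest start in 0 of 26 passing members (upper bound 13.2%). In the rest of chromosome IV it was 7 of 60 (4.82 to 22.6%), and these intervals overlap. A strong snoRNA candidate, at Y67A10A.14 (IV:14326900-14327219), had 80.7 (22.3 and 51.2). It was in the optimal list and in the list of replicate 2, but not in the conservative list. It also held the whole Ruby motif, with the highest signal of any member that did.

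Several members lay in repeated sequence. Of the 5 highest passing members, 4 had another copy of the summit window elsewhere in the genome, meaning a match of at least 50 bases at 80% identity. Among the 9 highest it was 5, and the 12 members without another copy of the window had a median signal of 102.6, against 95.4 over all 26. These 12 are not all unique sequence. They include Y73B6BL.t1 and the pseudogene WBGene00206491, which is among the 9 highest, and both have copies when the whole region is searched. Over all 26, 14 had another copy of the window (53.8%, 33.4 to 73.4), against 798 of 2591 not passing (30.8%). In the rest of chromosome IV it was 21 of 60 (35.0%) and 24.6%. How the authors placed reads that match several copies is not given in the sources used here, so values at near-identical copies cannot be told apart with certainty.

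The highest member lay 119 bp upstream of the non-coding RNA gene K08F11.7 (IV:4725483-4725714) with a signal of 443.6 (208.7 and 235.9). The second lay 79 bp upstream of the pseudogene K08F11.6 (IV:4727933-4728153) with 433.5 (210.5 and 223.7). Their summits are 2.469 kb apart, and a weaker member, 162.1 (69.6 and 92.8), lies near by at IV:4720636-4720742, upstream of K08F11.1. All 3 are higher in replicate 2, and all 3 stand in the list of each replicate alone.

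The K08F11.7 sequence has 7 other copies of at least 80 bases at 90% identity, all of them candidates and 3 of them passing, with signals from 14.2 to 319.6. The K08F11.6 sequence has 12, of which 8 are candidates and 3 pass, with signals from 15.9 to 214.5. The weaker K08F11.1 member overlaps an inverted copy of the K08F11.6 sequence that is identical over 131 bases. The 2 regions themselves share 83 of these bases, and the weaker one had 162.1 against 433.5. For 5 of the 7 copies of the first sequence, a copy of the second lies within 20 kb, so the 2 sequences recur as neighbours.

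A second family held both eastern members at the top. The region near the pseudogene Y116A8A.10 (IV:16845533-16845669) had 222.0 (94.7 and 126.5), and that near 21ur-11151 (IV:15530594-15530913) had 142.7 (67.1 and 78.2). They match each other at 99.1% over 111 bases. The strongest copy was outside the domains, at C46C2.12, with 328.3 (167.0 and 155.9), the highest passing region of the rest of the chromosome, and others passed at zip-11, with 198.4, and on chromosome II at K07D4.1, with 248.1. The 21ur-11151 region is therefore both the strongest member near piRNA starts and a repeat that passed at places with none.

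The region upstream of the pseudogene WBGene00206491 and of ari-1.4 (IV:15528863-15529182) had 123.5 (58.5 and 68.7), 1.731 kb from the 21ur-11151 summit. Its sequence has 8 other copies, of which 2 passed, at signals up to 105.1. Copies of the same 2 sequences stand near each other at K07D4.1 as well. The region near WBGene00199541 had 80.8 (40.3 and 35.5) in a highly repeated sequence with 752 copies, of which 52 overlapped passing regions. The passing member at the non-coding RNA gene H34C03.18 near the ubiquitin protease gene usp-4, had 96.2 (38.3 and 55.5) and no other copy.

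**Figure D4:**
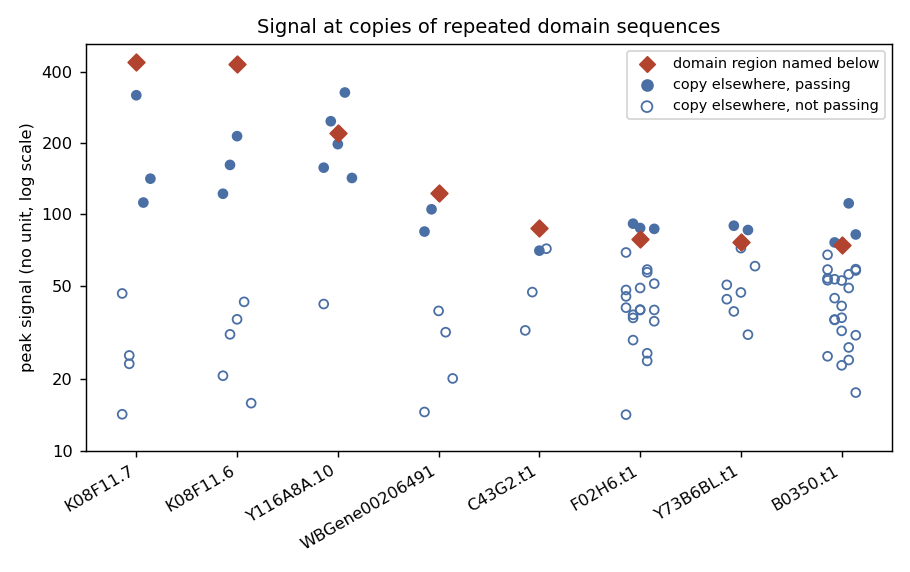
Peak signal (y axis, no unit, log scale) of 8 repeated members (diamonds) and of candidates at their copies elsewhere in the genome (circles, filled where passing). Copies with no candidate are not drawn. The K08F11.7 and K08F11.6 members lie above all their copies, while the Y116A8A.10 member at 222.0 lies below the copies at 248.1 and 328.3.

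Of the members with no other copy of the window, 12 of 1805 passed (0.665%), against 39 of 5365 in the rest (0.727%). These 12 include the regions at WBGene00206491 and Y73B6BL.t1, whose copies were found with the whole region and not with the window. Of those with one, 14 of 812 passed (1.72%), against 21 of 1759 (1.19%). The domain share was above that of the rest among repeated windows and below it among the others, and the intervals overlap in both pairs.

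Some strong members did not pass. The strongest, at IV:13549331-13549650 upstream of F52G2.3, had 164.2 (119.4 and 108.2), with 458 other copies of its window and a GC content of 28.7%. Its −log10 IDR of 4.69 is beyond the threshold, yet it is in neither the conservative nor the optimal list, and the reason is not given in the sources used here. It is followed by Y67A10A.14 at 80.7, lin-66, a gene of the larval timing pathway, at 79.6 (24.8 and 56.3), and the non-coding RNA gene WBGene00220175 at 79.3 (24.2 and 61.6). Each of these 3 stands in the optimal list and in that of replicate 2, with replicate 2 over 2 times replicate 1. The fifth, in an exon of the proteasome gene rpn-1 upstream of T22D1.8, had 75.8 (50.5 and 23.5) and was in no thresholded list.

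Along the chromosome, the 12 bins of 500 kb that lie within the domains held 0 to 5 passing regions, and 3 of them held none. The bin from 4.5 to 5.0 Mb held 5 with 268 piRNA starts, and that from 15.5 to 16 Mb, the richest with 1915 piRNA starts, held 3. The 3 bins without a passing region had 660, 1116 and 1799 piRNA starts. Median signal per bin was between 21.8 and 24.9. Passing regions were not confined to the bins poor in piRNA genes.

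The passing regions nearest to the borders were at varied distances. The western domain's first passing region was F29B9.11, 161 kb inside, with M01H9.6 28.4 kb outside at 72.0 (38.7 and 38.9). Its last was T05A12.4, 112 kb inside, with F32E10.10 574 kb outside at 83.7 (52.1 and 36.2). The eastern domain began with 21ur-6740, 599 kb inside, with K09B11.4 69.6 kb outside at 79.5 (29.9 and 46.3). It ended with snx-13, 112 kb inside, with eelo-2 49.9 kb outside at 72.2 (39.0 and 35.8). The border regions inside had signals of 127.2, 94.7, 63.7 and 109.0, and at 3 of 4 borders the inner one was the stronger.

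The replicates were compared in the passing members, each replicate's value being the highest overlapping signal in its own ranked list. Across the 26 regions the log2 values had a Pearson correlation of 0.878 and a Spearman correlation of 0.690, against 0.740 and 0.576 across the 60 of the rest. These points share their 2 libraries. Replicate 2 was higher in 22 of 26 members, with a median log2 ratio of 0.29 (SD 0.378), against 28 of 60 in the rest, with −0.03 (SD 0.442). It was also higher in 490 of the 808 members that did not pass and were matched in both replicates (median 0.16), and in 312 of 476 passing regions on the other chromosomes (median 0.18). The extremes were C01B10.9, Y116A8C.10 and Y17G9B.5 at 2.33, 2.00 and 1.58 times, and Y65A5A.2, WBGene00199541 and T05A12.4 at 0.616, 0.882 and 0.905.

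**Figure D5:**
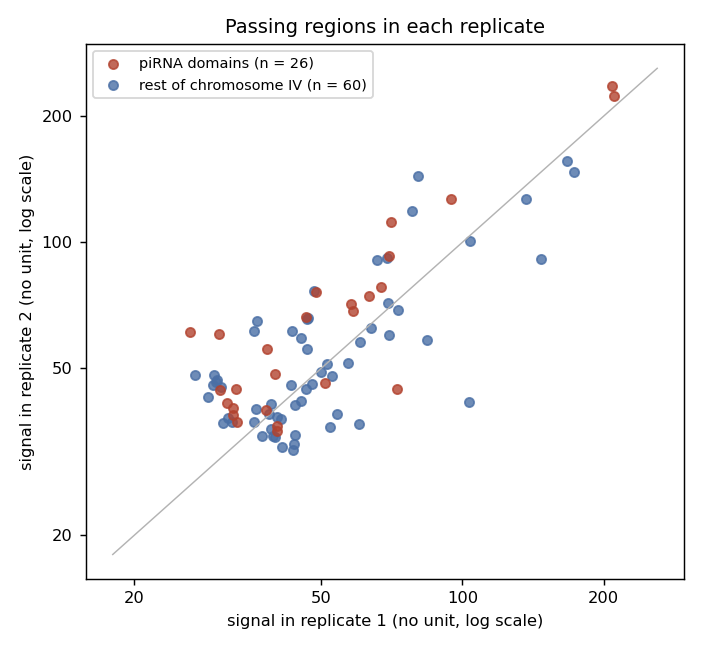
Signal in replicate 2 (y axis) against replicate 1 (x axis), both without unit on log scales, for passing regions of the piRNA domains (red, n = 26) and the rest of chromosome IV (blue, n = 60), with a grey line of equality. Domain regions stand above the line in 22 of 26 cases and the others in 28 of 60.

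In the passing members the medians were 43.3 in replicate 1 and 58.0 in replicate 2, against 45.4 and 46.6 in the rest. Of the 26, 11 passed in the list of each replicate alone and 11 in neither. Among members that did not pass, 808 of 2591 had a peak in both replicates' ranked lists, with a Pearson correlation of 0.228. The IDR keeps regions that rank alike in both replicates, so the higher correlation in passing members is built into the list.

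The genes of the piRNA pathway were looked up as a list of 26, from transcription factors of the clusters to Argonautes. Of these, 23 had a candidate within 1000 bp of a start, and 1 was reached (background 3.0% of all genes). This was tofu-1, needed for piRNA production, on chromosome V at 88.6 (39.0 and 45.4), where the nearest start belongs to ruvb-1. The median of the best signals was 30.9, with ife-3 at 63.6, ints-11 at 58.8, prde-1 at 41.6, snpc-4 at 38.8 and the Piwi gene prg-1 at 24.0. Only prg-2, the relative of prg-1, lies in a domain, and its candidate at IV:6528660-6528980 had 12.04. No candidate lay within 1000 bp of a start of tofu-4, attf-6 or pid-1.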

How the data were processed

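ChIP-seq of tagged BED-2 was deposited as peak lists on ce11, 4 for the series and 4 for the 2 replicates. Per the text deposited beside the samples, replicate lists derive from 1 alignment and a control, and series lists from both alignments. The aligner is not given in the sources used here, nor is the caller. The signal of each peak is the authors' value, without a stated scale, and serves only to describe and rank peaks. The score deposited by the authors follows from the global IDR in 100.0% of rows, its lowest conservative value being 830 (IDR 0.01). The ranked lists give the global IDR as a −log10 value, as deposited. The summit offset deposited by the authors placed summits. In addition, 2 columns of matched-peak signal match no sample by name and were not used.

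Overlapping peaks were merged, keeping the strongest. Starts came from Ensembl release 115. Copies were found with blastn 2.17.0. Scripts ran in Python 3.11.15 with scipy 1.17.1, pandas 2.3.3, numpy 2.4.6 and matplotlib 3.10.9 and were tested on simulated data. Regions are not replicates, so no test was run over them and comparisons are descriptions with exact 95% intervals. Members and lists were chosen with earlier results of these data known. Named regions are all passing members, the 5 strongest not passing, those at borders, piRNA genes within 150 bp of a passing summit, and 3 at each end of the replicate ratio. Candidates and piRNA genes named beyond these, strata and the shared stretch were chosen after their values were seen. Alternatives varied list, threshold, merging, borders, distance and replicate.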

Additional observations from a re-analysis of the deposited data

How the results depend on the processing

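Of 60 alternative settings over 9 results, 49 stayed within the spread of the reported value and 11 moved. For most results this spread was a counting interval over regions. For the ratio of median signals it was only 0.9636 to 0.9638, from the SD of the 2 replicates, and every alternative fell outside it. The tally therefore does not measure how firm the results are. The ratio of passing shares, domains over rest, was 1.18 and above 1 in 14 of 15 settings. Its interval, with the share of the rest held fixed, was 0.772 to 1.72 and spans 1. The settings reuse mostly the same regions, so their count adds no separate evidence. The ratio was 0.915 with windows without another copy and moved to 1.85 where no piRNA start was near. Each replicate alone gave 1.22 to 1.72. Passing regions per Mb had a ratio of 0.789, which moved to 1.19 without replicate 1 (0.846 without replicate 2). The ratio of median signals, 0.964, moved to 0.974 without merging, to 0.999 in each replicate alone, to 0.960 and 0.965 with borders shifted inward and outward by 200 kb, and to 0.971 against the other chromosomes. The median distance to a piRNA start, 2366 bp, moved to 5339 bp without replicate 2 and was 2466 bp without replicate 1. Coding starts were nearest in 75% in place of 53.8% when windows with another copy were left out, and the core motif gave 80.8% where the whole motif gave 0. The causes were not tested. Depth is unknown and with 26 passing regions all shares are coarse. No paired analysis was possible because there is 1 group.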
